A study of Mus musculus with 16 samples.

Results

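Dense clusters of Miz1 peaks were described at 4 places in the mouse genome. The members were the peaks of 2 Miz1 peak lists, 1 per cell line, whose summit lay in the mm10 intervals chr6:114400001-114800000, chr8:123400001-123800000, chr6:47600001-47800000 and chr7:15200001-15400000. They numbered 501 of 32091 peaks, with 231 of 21629 in the P6D4 list and 270 of 10462 in the 70Z/3 list. The intervals were chosen by the density of these same peaks, so peak number, spacing, pileup, fold and overlap are given as descriptions and carry no test.

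The study measured RNA and the chromosomal binding of Miz1 in both lines. P6D4 is a line from the SCID.adh mouse thymic lymphoma, labelled as DN3, an early thymocyte stage. 70Z/3 is a mouse lymphoblast line labelled as pre-B, an early stage of B cell development. Miz1 was precipitated once per line with the same rabbit antibody, and 3 RNA-Seq libraries were made of each line. No treatment or added allele is given for either line. Lineage was sampled through 1 line each, so lineage and line cannot be told apart. The peaks have no replicate. The labels number the RNA libraries as replicates and do not say whether the cultures were separate, so the p-values reflect the spread between libraries, possibly a technical one.

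Miz1 is a BTB and zinc finger protein, the product of Zbtb17, that switches genes on by itself and off when bound to Myc. Its better known sites lie at promoters of genes for autophagy, vesicle transport and the cell cycle. Arrays of repeated genes are a different kind of place: 5S ribosomal RNA, a part of the large ribosomal subunit, and the small 4.5S RNA of rodents are made by RNA polymerase III from genes that stand in tandem. Obox4 belongs to a family of oocyte homeobox genes that has many pseudogene copies on chromosome 7.

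The first interval on chromosome 6 lies between Hrh1, the histamine H1 receptor gene, and Atg7, which encodes an activating enzyme of autophagy. The RefSeq table of GRCm38.p6 places 4 genes in it, and none of them lies under the main body of peaks. The interval on chromosome 8 holds 70 genes, 51 of which are the tandem 5S rRNA genes, 48 annotated as rRNA and 3 as pseudogenes. The second interval on chromosome 6 holds 14 genes, among them Rn4.5s for 4.5S RNA and the Y RNA genes Rny1 and Rny3. The interval on chromosome 7 holds 12 genes, 9 of them Obox4 pseudogenes. The intervals are called here the Hrh1-Atg7 interval, the 5S array, the 4.5S array and the Obox4 array. The name of the 4.5S array rests on 1 annotated gene, Rn4.5s.

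The 4.5S array was the interval in which the RefSeq promoter table, which holds the 250 bases before and the 50 bases from each transcription start, gave repeated sequence lying under peaks. The windows of the predicted genes Gm40369 (chr6:47653742-47654041), Gm40367 (chr6:47662342-47662641), Gm36327 (chr6:47675332-47675631) and Gm40364 (chr6:47679657-47679956), all on the plus strand of GRCm38.p6, were identical in 300 of 300 bases. That shared sequence is shown with the window of Gm52861 (chr6:47738587-47738886, plus strand), which matched it in 297 of 300 aligned bases with 2 gap bases. Capitals mark the bases of Gm52861 that did not match.
Gm40369: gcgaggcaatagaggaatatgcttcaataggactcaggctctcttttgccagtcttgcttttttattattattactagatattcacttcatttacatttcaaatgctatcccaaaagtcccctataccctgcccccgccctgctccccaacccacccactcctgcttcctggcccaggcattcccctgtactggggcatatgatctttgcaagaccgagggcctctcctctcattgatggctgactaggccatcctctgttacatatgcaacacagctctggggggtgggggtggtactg
Gm52861: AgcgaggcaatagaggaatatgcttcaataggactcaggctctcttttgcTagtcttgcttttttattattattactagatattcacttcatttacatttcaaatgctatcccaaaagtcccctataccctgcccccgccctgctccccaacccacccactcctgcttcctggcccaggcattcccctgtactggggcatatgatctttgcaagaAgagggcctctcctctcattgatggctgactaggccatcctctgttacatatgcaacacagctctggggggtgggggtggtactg

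These starts stood 8.6 kb (Gm40369 to Gm40367), 12.99 kb (Gm40367 to Gm36327) and 4.325 kb (Gm36327 to Gm40364) apart. Each of the 4 identical windows overlapped a peak in both lists. The P6D4 summits lay at -342, -343, -342 and -342 bp from the starts, in the order above, so before the printed window in each copy, with pileups of 17, 16, 15 and 16 tags. In 70Z/3 the summits lay at -368, -406, -378 and -378 bp, with pileups of 18, 26, 28 and 25 tags. The same place in each copy therefore carried a summit in both lists. Gm52861 overlapped a peak in the P6D4 list, with its summit at -585 bp, and none in the 70Z/3 list, where the nearest summit was at 974 bp.

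A single tag of 50 bases cannot be placed uniquely inside an identical copy. Of the 50-base stretches in the 4 identical windows, 100% also occurred in another promoter window, and in Gm52861 the share was 59.8%. Every partner window lay inside the same interval. Over all 32817 promoter windows, 7.90% shared any 50-base stretch with another window and 1.59% were shared in full. In the 4.5S array 5 of 10 windows shared a stretch, against 0 of 4 in the Hrh1-Atg7 interval, 0 of 19 in the 5S array and 1 of 1 in the Obox4 array. The table has no window for the 5S genes or the Obox4 pseudogenes, and sequence between genes was not analysed here. The sources used here do not give how the authors placed tags that match several copies.

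A string known from Miz1 sites, ATCGAT, was searched on both strands of the promoter windows. It was in none of the 34 windows of the intervals and in 0.926% of all windows. At that share, 34 windows are too few to show a difference. Of the 34, 5 were under a P6D4 peak and 6 under a 70Z/3 peak. Outside the intervals, ATCGAT was in 14.2% of the 134 windows under a P6D4 peak and in 5.45% of the 385 under a 70Z/3 peak. A missing match says only that these letters were not in these windows, and most member summits lay outside them.

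**Figure D1:**
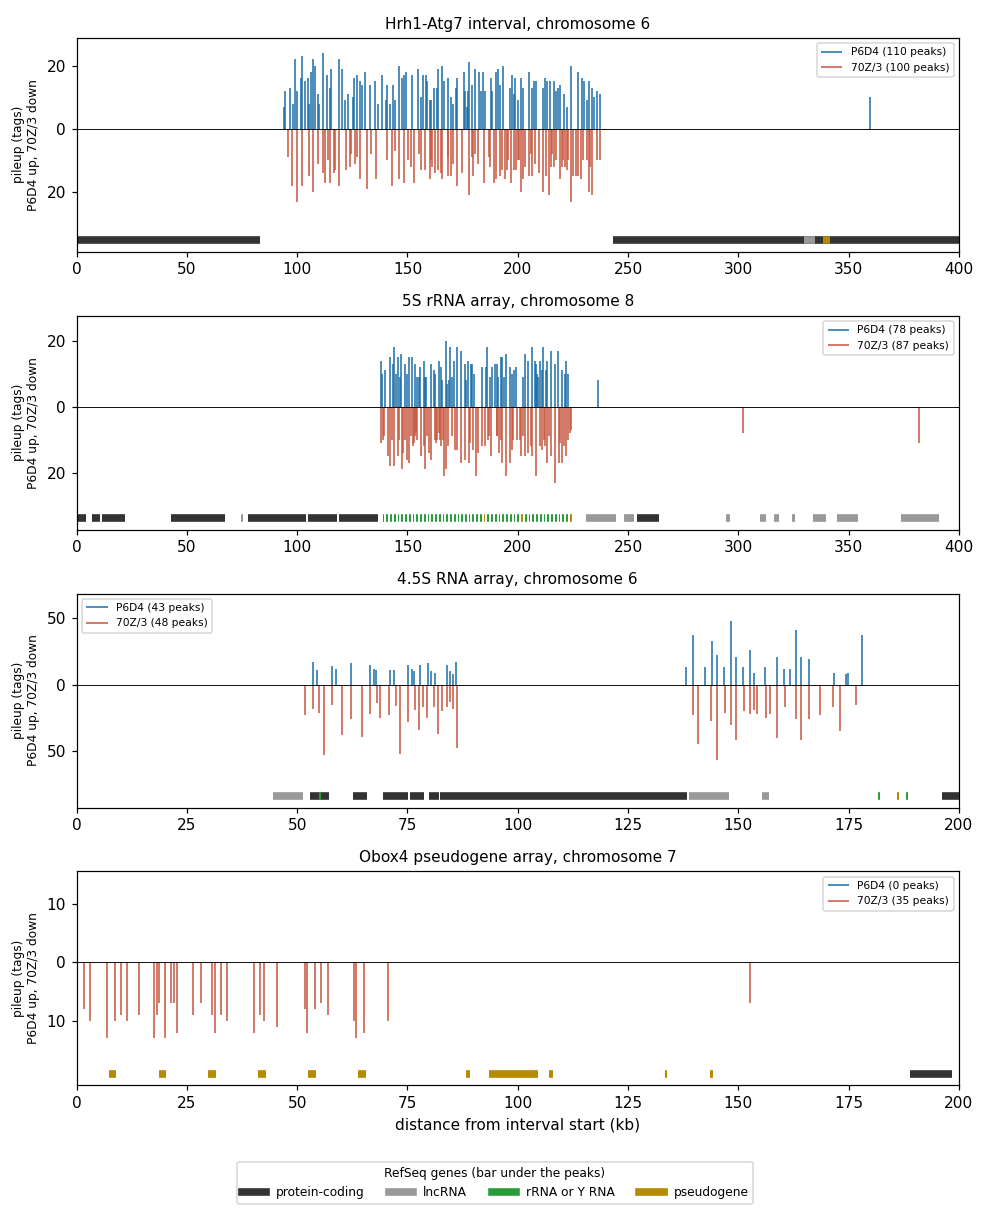
Summits of the member peaks along each interval (x axis, distance from the interval start in kb), with the pileup of tags at the summit (y axis), P6D4 upward and 70Z/3 downward, and RefSeq genes as bars below. The peaks fill short runs and leave most of each interval empty: 143.3 kb between Hrh1 and Atg7, 86.0 kb over the 5S genes, 2 runs of 34.4 and 39.8 kb in the 4.5S array, and 70.5 kb over Obox4 pseudogenes in the 70Z/3 list, where P6D4 had 0 peaks.

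The Hrh1-Atg7 interval held the most members in either list, 110 in P6D4 and 100 in 70Z/3. That is 27.5 and 25 peaks per 100 kb, while the whole lists held 1.16 and 0.559 peaks per 100 kb of the genome size the authors set. Of these, 109 and 100 stood in 1 run from 114493925 to 114637221, in which no 2 neighbouring summits of the pooled lists were more than 10 kb apart. Peaks covered 66.6% of that run in P6D4 and 47.2% in 70Z/3. The run began behind the end of Hrh1, with the nearest P6D4 summit 10627 bp from it, and ended before Atg7, with the nearest 70Z/3 summit 5906 bp from it. A lone P6D4 peak at 114759847 lay inside Atg7.

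The peaks of that interval stood little more than 1 kb apart. The median distance between neighbouring summits was 1209 bp in P6D4 (quartiles 916 and 1629) and 1274 bp in 70Z/3 (quartiles 842.5 and 1903). Distances between all pairs of summits, counted in bins of 100 bp up to 13 kb, were most frequent at 2.4 to 2.5 kb in 70Z/3, with 23 pairs against a median of 6 per bin, and next at 9.8 to 9.9 kb with 18 pairs and 4.9 to 5 kb with 16. P6D4 had its fullest bin at 1.2 to 1.3 kb, with 19 pairs against a median of 7, then 2.4 to 2.5 kb with 17 pairs. Its bins from 4.8 to 5 kb held 16 pairs each. The bin at 2.4 to 2.5 kb was thus among the 2 fullest in both lists.

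Pileup, the number of extended tags over a summit in the authors' file, ran from 7 to 24 in P6D4 and from 7 to 23 in 70Z/3, with medians of 15 and 13. All other peaks had a median of 11 in either list and reached 501 and 530. The members stood a little above the median height of their lists and far below the top. The highest P6D4 peak of the interval, at 114511810, had 24 tags and a fold of 14.4 over background, and the highest fold there was 15.7 at 114498859. In 70Z/3 the largest pileup of 23 tags was shared by the peaks at 114499784 and 114624018, and the latter had the highest fold, 14.6. Median peak length was 699 bp in P6D4 and 579 bp in 70Z/3, longer than the 385 and 367 bp of all other peaks.

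The 5S array held 78 peaks in P6D4 and 87 in 70Z/3. The annotated genes run from 123538784 to 123623745, are 109 to 121 bp long and start every 1698 bp at the median (1665 to 1727 bp). Nearly all of the peaks, 77 and 85, lay in 1 run from 123538062 to 123624048 that matched the extent of the genes. A peak overlapped 41 of the 51 5S genes (80.4%) in P6D4 and 44 (86.3%) in 70Z/3, and 38 genes were under a peak in both lists. Peaks covered 39.5% of this run in P6D4 and 65.1% in 70Z/3, so many genes would be overlapped wherever they stood. That level was not computed, so these counts do not show that peaks favour the genes.

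Distances between summits followed the length of the repeat most plainly in P6D4. In P6D4 the fullest bins were 1.6 to 1.7 kb with 27 pairs, 5 to 5.1 kb with 26, and 3.3 to 3.4 and 8.4 to 8.5 kb with 24 each, against a median of 2 pairs per bin. The fullest bins of 70Z/3 were 1.7 to 1.8 kb with 19 pairs and 5 to 5.1 kb with 17, against a median of 7. Next were 3.5 to 3.6 and 4 to 4.1 kb with 16 pairs each. The bin at 4 to 4.1 kb lies between multiples of the repeat, so the pattern stood out less in 70Z/3. Neighbouring summits were 1093 bp apart at the median in P6D4 and 939.5 bp in 70Z/3, less than 1 repeat, as the 77 and 85 summits were shared out over 51 genes. With peaks of a -log10 q of at least 5 alone, the P6D4 median was 1657 bp, close to 1 repeat, and the 70Z/3 median was 1009 bp, still well short of it.

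**Figure D2:**
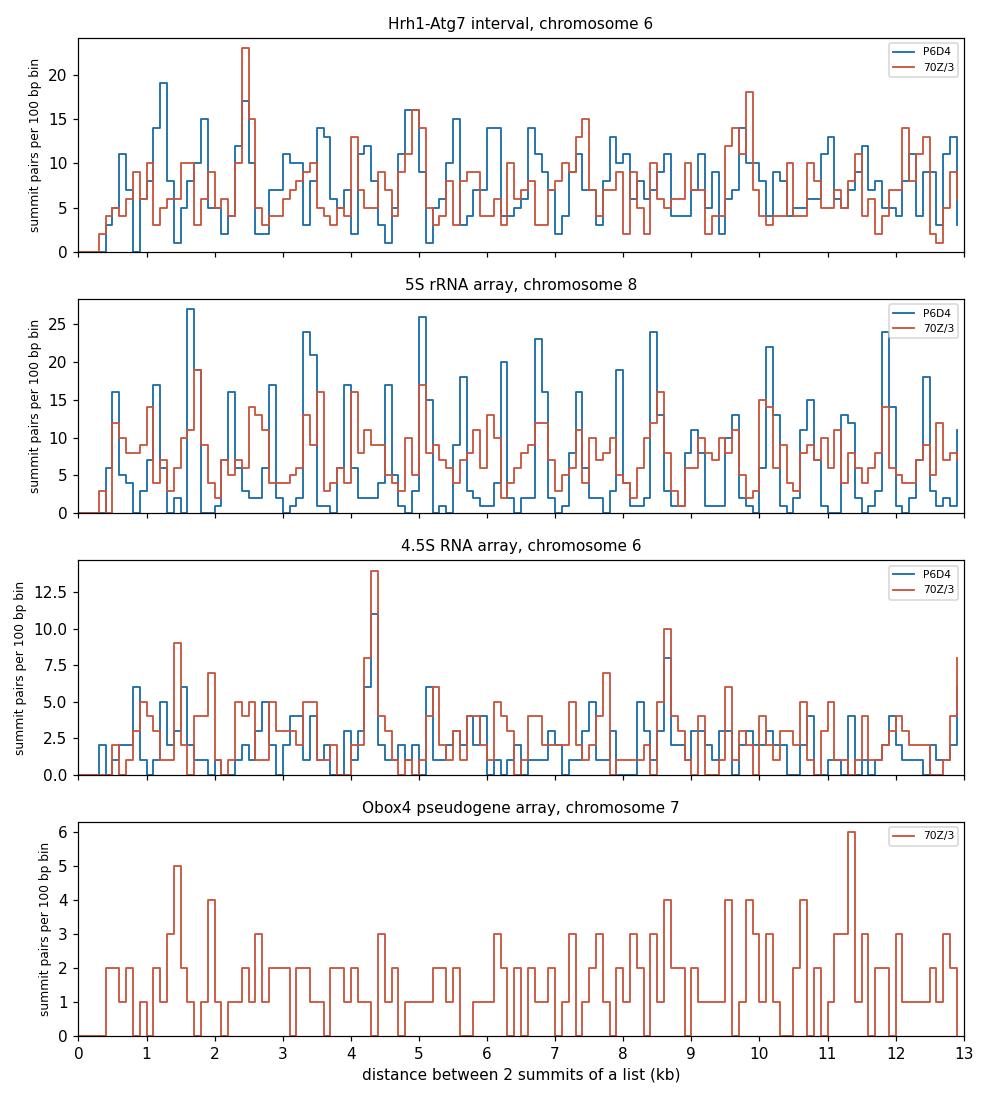
Number of summit pairs of a list (y axis) by the distance between the 2 summits (x axis, kb, bins of 100 bp), for each interval and line. Evenly spaced maxima are seen for P6D4 in the 5S array, starting at 1.6 to 1.7 kb, and both lines share maxima at 4.3 to 4.4 and 8.6 to 8.7 kb in the 4.5S array.

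Within the 5S repeat, P6D4 summits gathered at fixed places, while those of 70Z/3 were more spread out. Positions were counted from the start of the nearest 5S gene along the chromosome, since the table used does not give the strand, and the windows below were set after the values were seen. Of the 77 P6D4 summits in the run, 41 (53.2%) lay in the 200 bp just before a gene, a stretch that makes up 11.8% of the repeat. Another 21 (27.3%) lay at -750 to -600 bp, which is 8.83% of the repeat, and 0 lay on the first 100 bp of a gene. Among the 85 summits of 70Z/3, 28 (32.9%) lay in the 200 bp before a gene, 9 on its first 100 bp, 9 (10.6%) at -750 to -600 bp and 16 at 100 to 600 bp. The remaining 70Z/3 summits lay elsewhere in the repeat. Of the stretches listed, the one just before the 5S gene held the most summits in both lists.

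**Figure D3:**
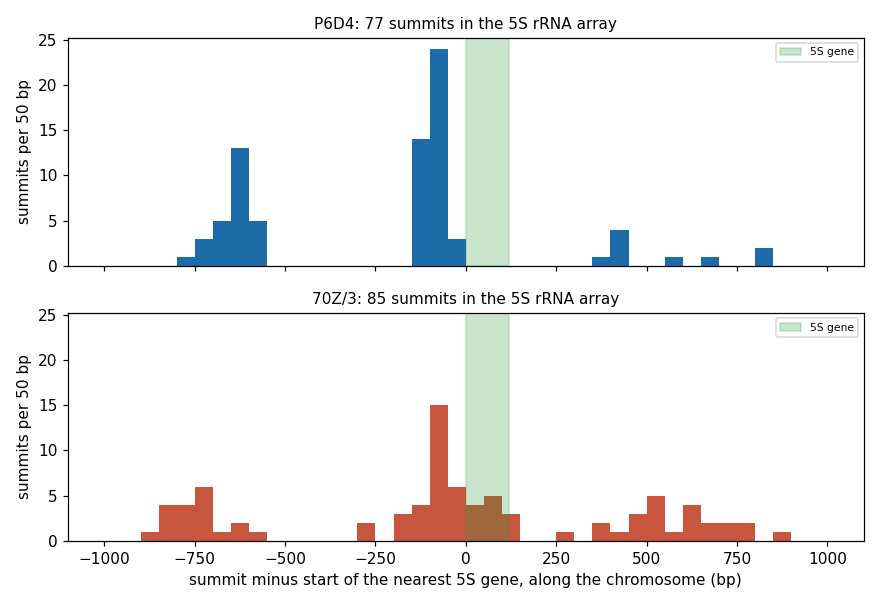
Summits in the 5S array (y axis, number per 50 bp) by distance from the start of the nearest 5S gene (x axis, bp along the chromosome), with the gene shaded. P6D4 summits form 2 groups, with 41 of 77 just before the gene and 21 at -750 to -600 bp, while 70Z/3 has 28 of 85 and 9 there and more summits elsewhere.

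Heights over the 5S genes were again moderate, from 7 to 20 tags in P6D4 (median 13) and from 7 to 23 in 70Z/3 (median 12). The highest P6D4 peak, at 123567571, had 20 tags and a fold of 11.4, and the highest of 70Z/3, at 123616713, had 23 tags and a fold of 14.6. The peaks covered 39.5% of the run in P6D4 and 65.1% in 70Z/3, the reverse of the order in the Hrh1-Atg7 interval. Lone peaks outside the run stood at 123636266 in P6D4 and at 123702129 and 123781949 in 70Z/3.

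The 4.5S array held 43 peaks in P6D4 and 48 in 70Z/3, in 2 runs, with a gap of 52251 bp in P6D4 and 53570 bp in 70Z/3 between them, most of it inside the predicted gene Gm40363. The first run, from 47651847 to 47686241, had 21 and 26 peaks and lay over Rn4.5s and predicted genes. The other, from 47738252 to 47778041, had 22 peaks in either list. Pair distances were most frequent at 4.3 to 4.4 kb in both lists, with 11 pairs in P6D4 and 14 in 70Z/3, and next at 8.6 to 8.7 kb, with 8 and 10, against a median of 2 per bin. The same distances of 4.325 and 8.6 kb separate starts with the identical sequence printed above.

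Among the 4 intervals it was the 4.5S array that held the highest peaks. In 70Z/3 pileups ran from 13 to 57 tags with a median of 23. In P6D4 they ran from 8 to 48 with a median of 13, and the runs differed: the first reached 17 tags (median 12) and the other 48 (median 16). The 70Z/3 medians of the runs were 22.5 and 24. The highest P6D4 peak, at 47748345, had 48 tags and a fold of 18.1, and the highest fold, 27, was at 47778041, 3583 bp from Rny3, the gene of a Y RNA. The highest 70Z/3 peak, at 47745094, had 57 tags and a fold of 15.5, and the highest fold there was 16.8 at 47673258.

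In the 4.5S array 20 of 43 summits in P6D4 and 23 of 48 in 70Z/3 lay inside a gene. Of these, 14 and 17 were in genes annotated as coding, which there are predicted genes. The counts inside any gene were 1 of 110 and 0 of 100 in the Hrh1-Atg7 interval, 1 of 78 and 11 of 87 in the 5S array, and 9 of 35 in the Obox4 array for 70Z/3. How often genes occur along each interval was not taken into account, so the counts describe position only.

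The Obox4 array had 35 peaks in 70Z/3 and 0 in P6D4. Of the 70Z/3 peaks, 34 stood from 15200177 to 15270658, and a lone peak stood at 15352744. A set of 6 pseudogenes, Obox4-ps18 to Obox4-ps23, have the same length of 1763 bp and start 11.33 kb apart at the median (11304 to 11339 bp). All 6 were under a peak. Peaks covered 20.9% of the run, and how many genes of this length would be overlapped wherever they stood was not computed. Pair distances were most frequent at 11.3 to 11.4 kb, with 6 pairs against a median of 1 per bin. The next bin, 1.4 to 1.5 kb, held 5 pairs, and the bins at 1.9 to 2 and 8.6 to 8.7 kb held 4 each. The counts are small, so the repeat length stood out little. In all 6 units a summit lay 1300 to 1599 bp behind the pseudogene start, and in 5 of 6 units 1 lay 4150 to 4449 bp behind it, in windows set after the values were seen. Pileups were the lowest of the 4 intervals, from 7 to 13 tags with a median of 9, and folds ran from 4.66 to 8.49. The largest pileup of 13 tags was shared by 4 peaks, at 15206946, 15217615, 15220148 and 15263429, and the highest fold was at 15220148.

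The edges of the intervals were clear except on chromosome 7. In the 100 kb on either side, the P6D4 list had 0 peaks beside 3 of the intervals and 2 peaks behind the Obox4 array. The 70Z/3 list had 0 beside both chromosome 6 intervals and 1 on either side of the 5S array. Beside the Obox4 array it had 24 before and 16 behind, with the last summit outside 2708 bp before the border and the first inside 177 bp behind it. The border on chromosome 7 therefore cuts through a longer stretch of 70Z/3 peaks, and moving it to 100 kb on either side, a choice made after seeing the data, raised the 70Z/3 members to 310 and those of P6D4 to 233.

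Depth differed strongly between the ChIP libraries. Per the file headers, 1 tag was kept per position, which left 2.07 M of 60.8 M tags (3.40%) in P6D4 and 4.48 M of 30.9 M (14.5%) in 70Z/3. Counts of peaks and pileups were therefore not tested between lines, and the part of depth in any difference between the lists was not tested.

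Overlap between the lists is given beside that of all other peaks. Of the P6D4 members 83.5% overlapped a 70Z/3 peak by at least 1 bp, against 21.9% of the other 21398 peaks. Of the 70Z/3 members 67.8% overlapped a P6D4 peak, against 44.0% of the other 10192. In the Hrh1-Atg7 interval the shares were 88 of 110 (80%, exact binomial 95% interval 71.3 to 87.0) in P6D4 and 87 of 100 (87%, 78.8 to 92.9) in 70Z/3. They were 73 of 78 (93.6%, 85.7 to 97.9) and 64 of 87 (73.6%, 63.0 to 82.4) in the 5S array, and 32 of 43 (74.4%, 58.8 to 86.5) and 32 of 48 (66.7%, 51.6 to 79.6) in the 4.5S array. The Obox4 array had 0 of 35 in 70Z/3, which was fixed in advance because the P6D4 list had 0 peaks there. The binomial intervals cover counting error only, and peaks of 1 repeat array are not independent.

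Peaks that cover much of a run overlap easily, so the overlap was also taken by position. With summits no more than 100 bp apart, 32.5% of P6D4 members and 27.8% of 70Z/3 members were shared, against 8.53% and 17.9% of all other peaks. When each peak had to cover 50% of the other, the shares were 38.5% and 33.0%, against 11.5% and 24.2%. The shares fell by more than 1.5 times in members and other peaks alike. Summits as dense as the members' also come within 100 bp of one another by density alone, and that level was not computed, so the comparison with the sparser peaks elsewhere does not show shared positions.

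**Figure D4:**
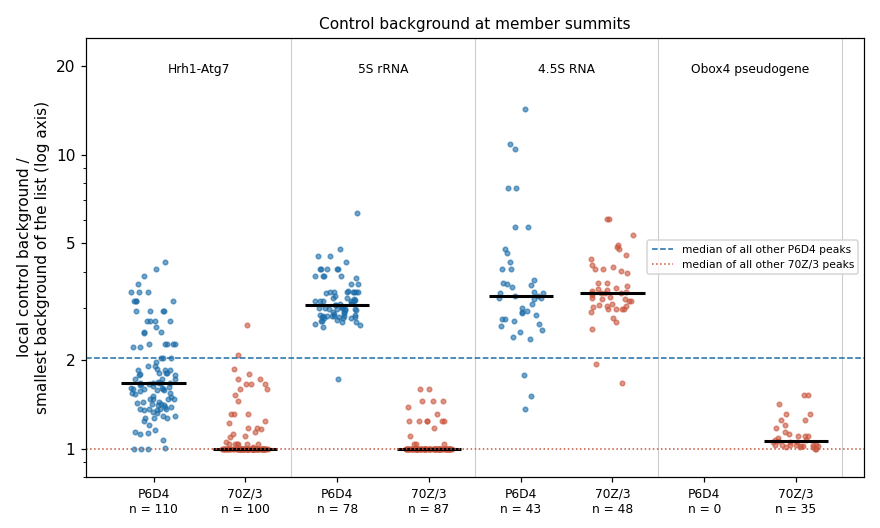
Local control background at each member summit divided by the smallest background of its list (y axis, log scale), by interval and line, with black bars at the median and dashed lines at the median of all other peaks of the list. The 4.5S array is above both lines in either list, with medians of 3.30 and 3.39, and the 5S array is high in P6D4 (3.09) and at the floor in 70Z/3 (1.00).

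The control at the summits was read back from the deposited values, because the caller's fold is the pileup plus 1 over the local background plus 1. The headers name regional averages of control tags over 1 and 10 kb beside the genome average. The recovered values also held control tags over the fragment length at the summit: 36.4% of the P6D4 and 57.1% of the 70Z/3 member values above the floor were whole multiples of 1 scaled control tag, within 0.01 of a tag. The largest of these averages sets the background, so it has a floor, recovered at 0.300 tags in P6D4 and 0.649 in 70Z/3, where the headers' tag numbers give 0.300 and 0.647. More copies of a sequence in the cells than in the reference, or tags of several copies placed in 1, would add control tags as well as ChIP tags. All other peaks had a median background of 2.04 times the floor in P6D4 and 1.00 in 70Z/3, so ratios are compared within a list.

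In the 4.5S array the control was high in both lists. Its median was 3.30 times the floor in P6D4 and 3.39 in 70Z/3, and 93.0% and 95.8% of summits were above 2 times the floor, against 51.0% and 3.03% of all other peaks. Depositors' remarks at members also fell in this array, all of them on tall peaks of 34 to 57 tags. Members of the other intervals reached at most 23 tags in 70Z/3. How peaks were picked for remarks is not given, so the remarks are no separate support. The 70Z/3 file carries 11 typed remarks, 5 of them at members and all 5 of these in the 4.5S array. Of the 6 remarks with the word "equal", 4 were at members: the peaks at 47660221, 47664599, 47677662 and 47745094. They had 38, 39, 34 and 57 tags and folds of 12.5, 11, 10.9 and 15.5. Their remarks read "input equal" or "equal input" and do not say what the input equals. The other remark at a member, at 47758726 (40 tags, fold of 11.2), reads "still ok up to here". It may mark a limit along a list, and which peaks lie past that limit is not given. None of the 2 remarks in the P6D4 file was at a member.

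In the 5S array the control was read against the other peaks of each list. In P6D4 it was at 3.09 times the floor, against 2.04 at all other peaks. There 98.7% of summits were above 2 times the floor, against 51.0%. In 70Z/3 it was at 1.00, as at all other peaks, with 79.3% of summits at the floor and 0 above 2 times. The Hrh1-Atg7 interval had a median control of 1.67 times the floor in P6D4, lower than at all other peaks. Yet 3.64% of its P6D4 summits were at the floor, against 17.2% of all other P6D4 peaks. Its control was 1.00 times the floor in 70Z/3, where 67% of summits were at the floor. In the Obox4 array it was 1.06 times the floor in 70Z/3, with 5.71% of summits at the floor and 0 of 35 above 2 times. All other 70Z/3 peaks were at the floor in 83.7%. The control was thus above the floor more often in the Hrh1-Atg7 and Obox4 intervals than elsewhere in that list. At the median it was at the floor in the Hrh1-Atg7 interval and slightly above it in the Obox4 array. For the 5S array the 70Z/3 share at the floor, 79.3%, was only a little lower than elsewhere. By the median, the control was above that of other peaks in the 4.5S array in both lists, in the 5S array in P6D4 and slightly in the Obox4 array in 70Z/3. Copy number of the intervals in these lines, the repeat content of their sequence and the placing of repeated tags were not tested.

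RNA was read next for the genes inside the intervals. Counts in genes came to 48.3 to 54.8 M per P6D4 library and 45.5 to 48.9 M per 70Z/3 library. The lineage labels matched the markers: all 8 pre-B genes listed passed the edgeR test as lower in P6D4 (0.759 to 1.32 summed CPM, counts scaled to library size, against 1867 to 1919) and all 9 thymocyte genes as higher (2929 to 2976 against 137 to 142). Of genes of other cells, 4 myeloid markers summed to 27.5 to 34.0 CPM in P6D4 and 21.1 to 23.0 in 70Z/3. Itgam (29.1 against 7.07 CPM) made up most of the P6D4 sum and passed the edgeR test as higher, while Csf1r (0.012 against 2.84) and Lyz2 (1.96 against 12.3) passed as lower. The sum of 4 stromal markers was 0 in P6D4 and 0.0666 to 0.166 in 70Z/3, with Dcn at 0. Zbtb17 had 44.4, 46.0 and 45.7 CPM in P6D4 and 41.3, 40.6 and 41.5 in 70Z/3, a log2 difference of 0.14 ± 0.04 (SE, edgeR adjusted p = 0.00426), so the gene for Miz1 itself differed little.

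Most genes of the intervals gave no RNA count. Of 100 genes, 74 had a match in the count files, 14 had any count and 11 passed the filter on low counts. Of the 51 5S genes 50 matched and 1 had counts, n-R5s106, with 1, 4 and 0 in P6D4 and 0, 0 and 3 in 70Z/3. None of the 7 matched Obox4 pseudogenes had a count. Rny3 had 1 count and Rny1 had 2 over the 6 libraries, and Rn4.5s had no match. These values set no level for the RNAs of the arrays: the kit selects messenger RNA, per the labels' protocols, and alignments to several places were counted apart, at 1.10 to 1.14 per count in a gene in P6D4 and 1.41 to 1.44 in 70Z/3. Fewer cells that express a gene and less RNA per cell cannot be told apart in such libraries.

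Of the 11 tested genes, 6 passed the test as higher in P6D4, 3 passed it as lower, and 2 did not pass (edgeR quasi-likelihood test, adjusted p under 0.05). Over all 13750 genes tested, 43.3% were higher and 43.2% lower, 86.5% in all. In 9 of the 11 the libraries of the lines did not overlap, against 87.4% of all genes. The median log2 difference was 0.21, against 0.01 over all genes. Shares of this kind, on 11 genes, are near those of the genome.

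At the Hrh1-Atg7 interval, Atg7 had 23.4, 22.4 and 20.9 CPM in P6D4 and 43.1, 44.8 and 43.9 in 70Z/3. Every P6D4 library was below every 70Z/3 library, with a log2 difference of -0.98 ± 0.05 (SE, edgeR adjusted p = 3.2e-10). Hrh1 had 0 counts in all 6 libraries. The run of peaks beside both genes was present in either list.

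Beside the 5S array, Gas8, a gene of the motile cilium, was closest to the peaks, 1522 bp from a summit in P6D4 and 1405 bp in 70Z/3. It had 8.26, 6.64 and 7.22 CPM in P6D4 and 13.3, 13.8 and 13.5 in 70Z/3, with no overlap and a log2 difference of -0.88 ± 0.08 (edgeR adjusted p = 2.02e-07). Afg3l1, for a mitochondrial protease subunit, had 117, 114 and 109 CPM against 97, 99 and 95.9, and was higher in P6D4 by 0.22 ± 0.04 (edgeR adjusted p = 7.16e-05). Tcf25, a ribosome quality control gene, had 323, 346 and 364 CPM against 305, 292 and 298, higher by 0.21 ± 0.04 (edgeR adjusted p = 0.000392). Def8, a gene of lysosome positioning, had 57.7, 54.6 and 53.7 CPM against 43.7, 44.7 and 47.7, higher by 0.29 ± 0.05 (edgeR adjusted p = 4.96e-05). These genes of the better expressed part of the interval were thus higher in P6D4 by small amounts, apart from Gas8.

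Genes with low counts went either way. Mc1r, the melanocortin 1 receptor gene, had 0.721, 1.21 and 0.862 CPM in P6D4 and 4.87, 2.40 and 3.93 in 70Z/3, lower by a log2 difference of -2.0 ± 0.26 (edgeR adjusted p = 5.76e-06). Tubb3, a neuronal tubulin gene, was at 0.324, 0.247 and 0.164 CPM against 0.426, 0.249 and 0.400 with overlapping libraries, and was not called (log2 difference -0.52 ± 0.32, edgeR adjusted p = 0.150). A group of 3 genes had 0 counts in all 70Z/3 libraries, where the floor of 3 counts per library stands for 0.0622 to 0.0666 CPM. Dbndd1 had 0.505, 0.512 and 0.595 CPM in P6D4, with a mean of 8.37 times the mean of that floor. Rhou had 0.343, 0.266 and 0.267 CPM, with a mean of 4.54 times it. The long noncoding RNA 4732419C18Rik had 0.793, 1.08 and 1.15 CPM, with a mean of 15.7 times it. All of these were called (edgeR adjusted p = 6.49e-07, 9.49e-06 and 1.48e-07), from levels near 1 CPM or below.

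The tested gene of the 4.5S interval was Pdia4, a chaperone of the endoplasmic reticulum, whose body crosses the border 18100 bp from the nearest P6D4 summit. It had 167, 174 and 179 CPM in P6D4 and 172, 186 and 188 in 70Z/3, overlapping, with a log2 difference of -0.07 ± 0.04 (edgeR adjusted p = 0.117). Without replicate 1 of 70Z/3 it was called lower, at -0.11 (edgeR adjusted p = 0.0127, range over the alternatives 0.0127 to 0.345). Rn4.5s and the predicted genes under the peaks had no match in the count files, so their RNA was not read here. No gene of the Obox4 interval was tested, its 9 matched genes having 0 counts in all 6 libraries.

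**Figure D5:**
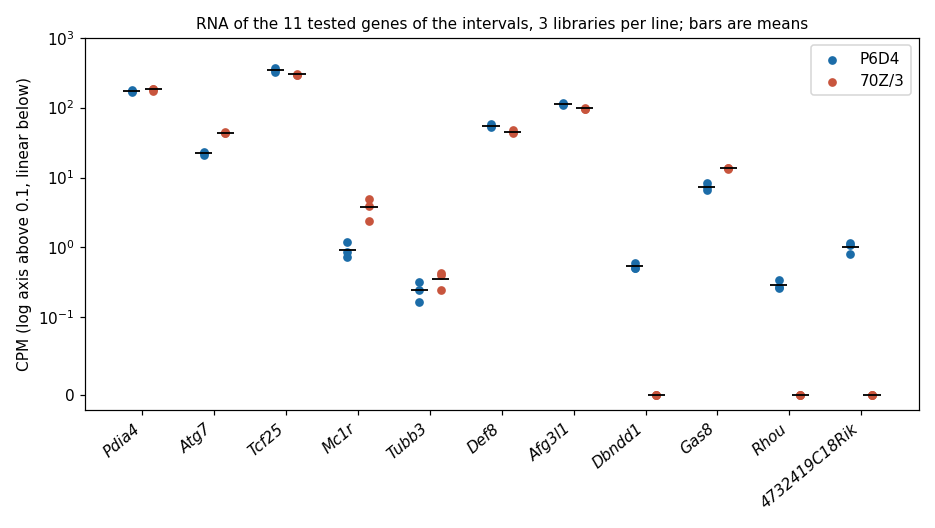
CPM of the 11 tested genes of the intervals (y axis, log scale above 0.1 and linear below) in the 3 libraries of each line (points), with bars at the mean. Atg7, Mc1r and Gas8 are lower in P6D4, Dbndd1, Rhou and 4732419C18Rik have no count in 70Z/3, and Pdia4 and Tubb3 overlap.

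Neighbouring genes within 1 Mb outside each interval were counted in the same way. Over all genes tested, 43.3% were higher in P6D4 and 43.2% lower. Around the 5S array 24 of 37 tested genes passed as higher in P6D4 and 7 as lower, and the median log2 difference was 0.29, while chromosome 8 as a whole had a median of 0.06 over 676 genes. Around the Hrh1-Atg7 interval 5 of 20 were higher and 14 lower (median -0.28). For the 4.5S array 5 of 24 were higher and 16 lower (median -1.01). The quartiles there were -8.62 and 0.03, so that median stands on widely spread genes. Chromosome 6 had a median of -0.50 over 624 genes. Around the Obox4 array 6 of 12 were higher and 5 lower (median 0.10). No test of these medians was made, and RNA of neighbours does not measure copy number.

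Genes of the machinery that transcribes and handles 5S rRNA were listed as context: 30 subunits and factors of RNA polymerase III, 5S binding proteins and assembly factors. Of these, 29 matched and were tested. In P6D4 14 passed as higher and 10 as lower, and 5 did not pass. Their median log2 difference was 0.07, and both shares were near those of all genes. Polr3b, the second largest subunit of RNA polymerase III, was at 122 ± 6.51 CPM (SD, n = 3) in P6D4 and 49.1 ± 1.54 in 70Z/3, a log2 difference of 1.31 ± 0.04 (SE). Brix1, an assembly factor of the large ribosomal subunit, rose by 1.05 ± 0.03. Gtf3c3 and Gtf3c6, subunits of TFIIIC that binds promoters of polymerase III genes, fell by 0.84 ± 0.04 and 0.67 ± 0.06. Gtf3a, the factor that recognises the 5S gene itself, was at 70.7 ± 2.20 CPM against 99.2 ± 2.89 (SD, n = 3), a log2 difference of -0.49 ± 0.04 (SE, edgeR adjusted p = 3.49e-08), named after its value was seen.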

How the data were processed

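Miz1 ChIP-Seq (1 library per line) and RNA-Seq (3 libraries per line) of 2 mouse lines were used. The histone and input samples of the series were not used here. The 4 intervals, their members and the gene lists were chosen with earlier results of these data known.

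Peaks were called by the authors with MACS 2.0.10.20120913 on 1 library per line, per the file headers, against an input that the headers name only by number, with a q-value threshold of 0.01, tags of 50 bp, extended lengths of 271 bp (P6D4) and 270 bp (70Z/3) and 1 tag per position. Control depth after that step was 30.4 M tags (45.6%) for P6D4 and 99.8 M (85.5%) for 70Z/3, scaled to the ChIP depth. The deposited pileup is a signal in tags, the deposited fold a ratio of pileup to local background, and the deposited significance a -log10 of the p and q. The submitters' processing notes name Bowtie2 2.10, TopHat2 2.0.10, SAMtools, bedtools and HTSeq and the builds mm10 and GRCm38. The strand setting and the treatment of multiply placed tags are not given in the sources used here. The deposited RNA values are raw counts per gene, per the labels' mRNA kit from stranded libraries, and 5 summary lines that name no gene were left out. These lines hold alignments that were not unique and reads in no gene, which came to 17 to 19.1% of the counts in genes.

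A peak belonged to an interval by its summit. Spacing, overlap (1 bp), pair distances, runs and offsets were computed with Python 3.11.15, pandas 2.3.3 and numpy 2.4.6. Genes and promoter sequence came from RefSeq (GRCm38.p6), matched by symbol, and windows were aligned with biopython 1.88. Of 38293 genes, 13750 passed filterByExpr and were tested with edgeR 4.0.16 in R 4.3.3 (TMM, quasi-likelihood, Benjamini-Hochberg adjusted p under 0.05). The term was the line, and the biological coefficient of variation was 4.08%. The SE is the log2 difference over the square root of F and is no fitted error. The fit was tested on simulated data. Named genes are the interval genes of highest mean CPM, up to 8 per interval, and Zbtb17. Genes with a summit inside belong to the rule too, and apart from Atg7 and n-R5s106 they had no count or no match. Rhou, Rny1 and Rny3 fall outside it and were named after their values were seen. Another list of markers is not reported here. Named peaks are those of highest pileup and fold per interval and list and those with a remark. In the polymerase III list, the 2 largest rises and falls are named.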

Additional observations from a re-analysis of the deposited data

How the results depend on the processing

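The number of members was within 1.5 times of its value with a -log10 q of at least 5 (204 in P6D4, 240 in 70Z/3), with a fold of at least 5 (214 and 257), with any peak that overlaps an interval (231 and 270) and, chosen after seeing the data, without the 4.5S array (188 and 222). The overlap depended most on its definition. The P6D4 share of 83.5% became 38.5% with a reciprocal overlap of 50% and 32.5% with summits within 100 bp, and the 70Z/3 share of 67.8% became 33.0% and 27.8%. Without the 4.5S array the shares were 85.6% and 68.0%. The median spacing over all P6D4 members was 1189.5 bp and 1280 bp with a -log10 q of at least 5, and in its 5S array 1093 and 1657 bp. The cause was not tested.

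The count of 11891 genes called between the lines was 11642 with DESeq2 1.42.0, 13353 with no filter on low counts and 11699 to 11981 when 1 library was left out. Interval genes called higher were 6 under each of these and 5 with gene bounds wholly inside, and those called lower were 3, 2 with gene bounds wholly inside and 4 without 70Z/3 replicate 1, where Pdia4 was called. With the replicate number as a block, 11714 genes were called, with 6 interval genes higher and 3 lower. Same-numbered libraries did not deviate together (correlations -0.055, -0.046 and 0.0084), so the numbers show no pairing.

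With 1 library per line and 2.07 M and 4.48 M tags kept, a peak missing from a list does not show that binding is absent. The smallest pileups called were 4 tags in P6D4 and 6 in 70Z/3.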

Other observations

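Windows of 100 kb outside the intervals held fewer peaks than the densest windows inside. In 70Z/3 some of them were about as dense as other windows inside. Where the densest windows inside held 77 peaks in P6D4 and 62 in 70Z/3, both at chr6:114500001-114600000, the densest outside held 17 in P6D4, at chrX:91800001-91900000, and 24 in 70Z/3, at chr7:15100001-15200000 beside the Obox4 array. The next windows outside in 70Z/3 held 22 peaks at chr8:20600001-20700000 and 16 at chr7:15400001-15500000. The median window with any peak held 2 peaks in P6D4, over 8960 windows, and 1 in 70Z/3, over 7250. The chromosome 8 window of 70Z/3 is about as dense as the windows of the 4.5S array in that list, which held 26 and 22, and was not part of the intervals described.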
